A study of Mus musculus with 48 samples.

Results

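Accessible chromatin was described at 9 genes of the transforming growth factor beta (TGF-beta) pathway in tumour-infiltrating CD8 T cells of mice: the ligand gene Tgfb1, the receptor genes Tgfbr1 and Tgfbr2, the signal transducers Smad2, Smad3 and Smad4, the inhibitory Smad7, and the repressors Ski and Skil. A peak of the deposited ATAC-seq table was given to a gene when it overlapped that protein-coding gene's body (with several, the gene whose boundary was nearest the peak's middle), and otherwise to the nearest gene body within 100 kb. These rules gave 84 of the 53868 peaks: 2 at Tgfb1, 2 at Tgfbr1, 21 at Tgfbr2, 8 at Smad2, 21 at Smad3, 8 at Smad4, 9 at Smad7, 9 at Ski and 4 at Skil. Of these, 52 lay in a gene body and 32 outside one, and the assignment by position does not show which gene a peak acts on.

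The cells were OT-1 CD8 T cells, whose transgenic receptor recognises ovalbumin. They expressed Cas9 and had received a guide RNA by lentivirus; all groups share this background, the transfer into a host and the B16-OVA tumour, a melanoma line that makes ovalbumin. The hosts were young or aged mice, the tumours were taken at day 15, and the guide groups were Zfp219 (labelled Zfp219KO), Dusp5 (labelled Dusp5KO) and the control OTC. Cells were sorted by the surface proteins Slamf6 and Tim-3 into progenitor exhausted cells (Tprog, Slamf6 only), transitory, effector-like cells (Ttran, both), terminally exhausted cells (Tterm, Tim-3 only) and age-associated dysfunctional cells (Ttad, neither; analysed here from aged hosts only). The 48 libraries, 24 from each host age, form 21 groups: 15 of 2 libraries and 6 of 3. Each library is a pool of cells from several mice. The hosts' ages in weeks are not given in the sources used here.

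TGF-beta is secreted in a latent form and, once released, binds the type II receptor TGFBR2, which recruits and phosphorylates the type I receptor TGFBR1. The active TGFBR1 kinase phosphorylates SMAD2 and SMAD3, which join SMAD4, enter the nucleus and bind DNA with other factors; SMAD7 blocks the receptor complex, and SKI and SKIL (SnoN) hold SMAD target genes silent. In CD8 T cells the pathway is known for restraining effector function and for the residence programme of tissue-resident memory cells.

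Tgfb1, Tgfbr1, Tgfbr2 and Smad3 have both a start-site peak and a promoter sequence in RefSeq (GRCm38.p6). The sequences of the ligand gene and the receptor genes are shown. Each is the 250 bases before the annotated start site, 5′ to 3′ on the gene's strand, with matches to GGGCGG on either strand (CCGCCC is the reverse complement) in capitals.
Tgfb1 (chr7:25686752-25687001, plus strand): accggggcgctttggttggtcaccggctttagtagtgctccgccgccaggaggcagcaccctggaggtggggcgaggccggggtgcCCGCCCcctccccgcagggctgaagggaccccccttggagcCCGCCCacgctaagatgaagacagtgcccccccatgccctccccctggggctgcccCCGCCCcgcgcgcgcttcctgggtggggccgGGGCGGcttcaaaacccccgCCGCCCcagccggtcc
Tgfbr1 (chr4:47352972-47353221, plus strand): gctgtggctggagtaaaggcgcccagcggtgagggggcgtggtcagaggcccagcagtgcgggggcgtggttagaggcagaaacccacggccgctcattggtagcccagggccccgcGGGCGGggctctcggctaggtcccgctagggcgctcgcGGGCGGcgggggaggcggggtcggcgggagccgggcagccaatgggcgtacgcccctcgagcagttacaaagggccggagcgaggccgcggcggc
Tgfbr2 (chr9:116175364-116175613, minus strand): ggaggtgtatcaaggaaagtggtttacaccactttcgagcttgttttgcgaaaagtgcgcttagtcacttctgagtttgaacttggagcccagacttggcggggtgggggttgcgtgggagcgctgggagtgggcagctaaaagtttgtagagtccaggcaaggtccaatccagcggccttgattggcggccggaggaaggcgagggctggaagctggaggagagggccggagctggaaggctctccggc
The Tgfb1 window holds 5 matches, the first Tgfbr1 window 2 and the Tgfbr2 window 0; 32.7% of the 32851 promoter windows of this length hold at least 1. CAGAC, the short SMAD-binding element, had 1 match in the Tgfbr2 window and none in the other windows printed, and it occurs in 42.2% of all windows; the longer GTCTAGAC (0.167% of windows) and the AP-1 motif TGANTCA (6.75%) had 0 matches in these windows. All of the Tgfbr1 and Tgfbr2 windows and 242 bases of the Tgfb1 window lie under the start-site peaks described below. Of the 9 genes, 5 had an entry in the promoter table; Smad2, Smad4, Smad7 and Skil had none.

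Values are reads per peak after the authors' scaling of each library to a common depth, called normalized reads here. Libraries held 5638413 to 29942755 reads in peaks (median 14691505). The CD8 T cell list (Cd8a, Cd8b1, Cd3d, Cd3e and Cd3g) had peaks at 5 of 5 genes. Of the lists for other cells, peaks lay at the B cell gene Pax5 but not at Ms4a1 or Cd79a, and at 3 of 5 myeloid genes (none at Lyz2 or Csf1r), 4 of 6 melanoma genes (none at Tyrp1 or Dct), 4 of 5 stromal and endothelial genes, 2 of 2 NK cell genes and Cd4 but not Foxp3. At the targeted genes, 0 of 2 Zfp219 peaks were called by limma in either host age with the Zfp219 guide (0 at an unadjusted p under 0.05, 0 with edgeR). Of 17 Dusp5 peaks, 2 were lower with the Dusp5 guide in aged hosts, beside 7.87% of all peaks. In young hosts 2 were lower and 1 higher, beside 2.02% and 1.8% of all peaks. Accessibility does not measure editing.

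Of the 84 peaks, 82 had at least 1 read in every library, and 17 fell among the weakest 25% of all peaks by mean. A difference somewhere among the 21 groups (limma F test, adjusted p under 0.05) was called at 72 of the 84, beside 75.9% of all peaks. For each comparison a peak was called at a limma adjusted p under 0.05 over all 53868 peaks. As a share the 84 peaks stayed near the table as a whole in most comparisons. In OTC cells of aged hosts, 17 of 84 peaks (8 higher, 9 lower) differed between Tprog and Tterm beside 20.1% of all peaks (8.88% higher, 11.2% lower). In young hosts 23 of 84 (14 higher, 9 lower) differed beside 26.5% (13.9% higher, 12.6% lower). Among the 10 main comparisons the widest gap between the shares was for Zfp219 against OTC in young hosts: 16 of 84 peaks beside 7.07% of all. The results are therefore given gene by gene.

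**Figure D1:**
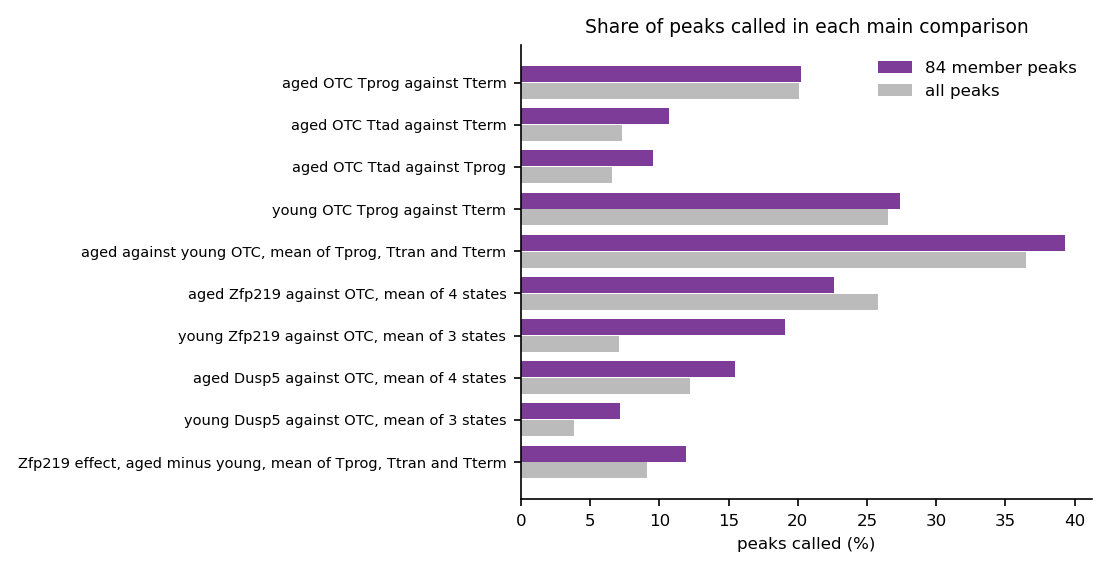
Share of peaks (%) called at a limma adjusted p under 0.05 in each of the 10 main comparisons, for the 84 peaks of the 9 genes (purple) and for all 53868 peaks (grey). The bars of a pair are of like length for Tprog against Tterm (20.1% and 26.5% of all peaks), while for Zfp219 against OTC in young hosts the purple bar stands above a grey bar of 7.07%.

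Tgfb1 encodes the main TGF-beta ligand of immune cells. It had 1 peak over its start site (chr7:25686760-25690048, mean 2088 normalized reads) and 1 that began 2021 bases past the end of the gene (chr7:25707098-25708539, middle 20.8 kb from the start site, mean 1392), which is also 2573 bases from the neighbouring gene Ccdc97. The start-site peak in turn lay 198 bases from the neighbouring gene B9d2. The second peak had the largest F of the 84 (50.3). In OTC cells of aged hosts it held 1658 and 1749.6 normalized reads in Tprog, 1986 and 2087 in Ttran and 1826 and 1749 in Tterm, and Ttad held 2189.9 and 1987. In young hosts it held 1123 and 1169 in Tprog, 1476, 1413 and 1363 in Ttran and 1049, 1098 and 1115 in Tterm. Every OTC library of an aged host was above every OTC library of a young host. Averaged over the 3 shared states the aged libraries were higher by 0.60 ± 0.04 SE on the log2 scale (limma adjusted p = 5.4e-22).

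With the Zfp219 guide the same peak was lower in both host ages. In aged hosts the Zfp219 libraries held 1432 and 1495 in Tprog, 1356 and 1209 in Ttran and 1459.8 and 1490.0 in Tterm, with 1476 and 1467 in Ttad. In young hosts they held 834 and 862 in Tprog, 912, 1100.0 and 933 in Ttran and 899.9, 916 and 895 in Tterm. In each of these 7 pairs of groups all Zfp219 libraries lay below all OTC libraries of the same state. The log2 difference was -0.42 ± 0.04 SE in aged hosts (limma adjusted p = 6.4e-15) and -0.41 ± 0.04 SE in young hosts (limma adjusted p = 7.29e-13). With the Dusp5 guide it was -0.19 ± 0.04 SE in aged hosts (limma adjusted p = 0.000249) and -0.01 ± 0.04 SE in young hosts (limma adjusted p = 0.925); set directly against each other, Zfp219 cells differed from Dusp5 cells by -0.23 (aged) and -0.40 (young) on the log2 scale (limma adjusted p = 7.7e-06 and 9.06e-13).

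The start-site peak of Tgfb1 moved in the same directions by less: 0.21 ± 0.03 SE for aged against young OTC, -0.09 ± 0.03 SE for Zfp219 in aged hosts and -0.24 ± 0.03 SE in young hosts (limma adjusted p = 6.01e-08, 0.013 and 5.64e-09). With the Dusp5 guide its mean log2 level was below OTC in all 4 aged states and all 3 young states. Averaged over states in young hosts the Dusp5 difference was -0.11 (limma adjusted p = 0.0264). That call was lost under quantile normalization (adjusted p = 0.519) and without any 1 of 6 libraries. Between Tprog and Tterm neither Tgfb1 peak was called by limma in OTC cells of either age (at an unadjusted p under 0.05, 1 in aged and 0 in young hosts; 0 with edgeR in both).

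**Figure D2:**
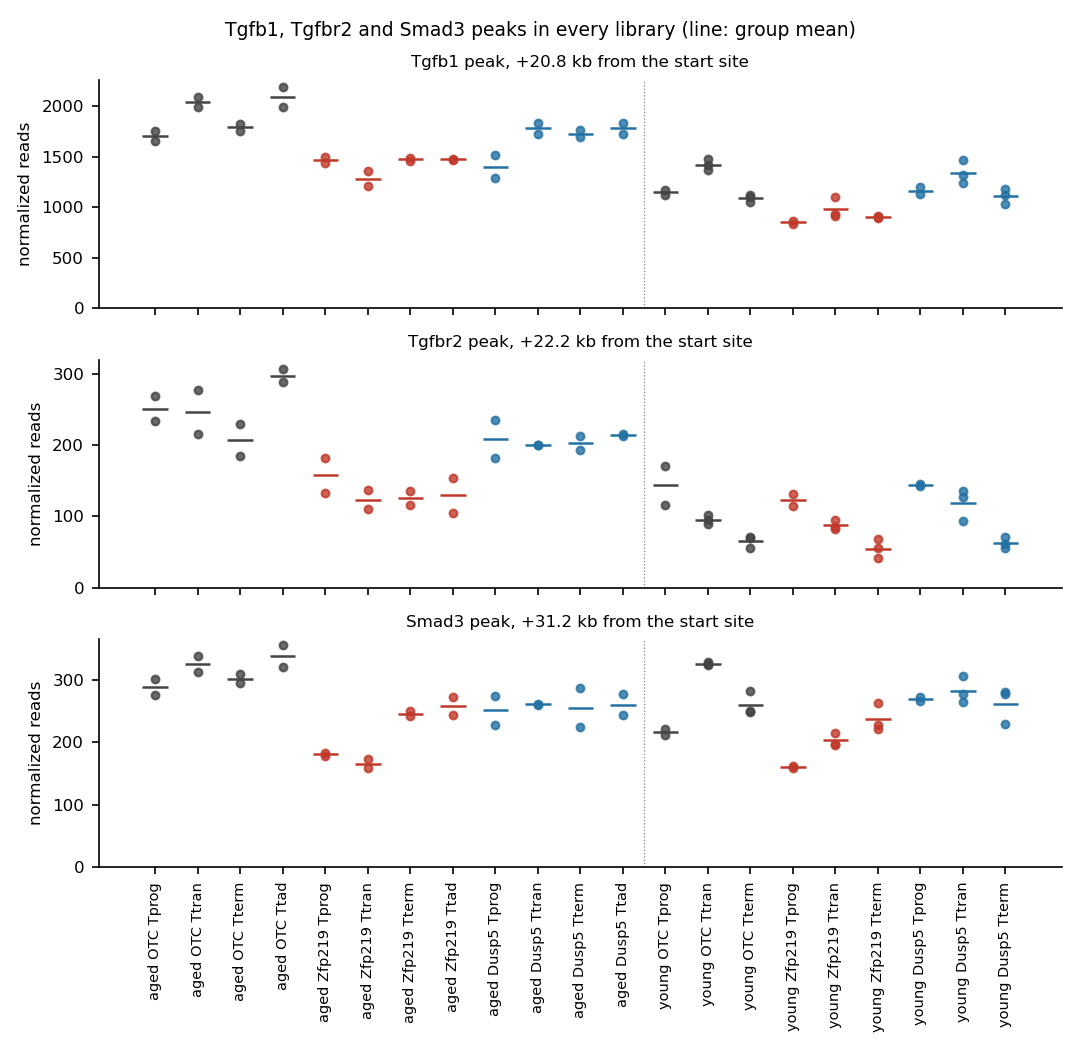
Normalized reads in every library (points) and the group mean (line) for a Tgfb1 peak 20.8 kb past the start site, a Tgfbr2 peak 22.2 kb inside the gene and a Smad3 peak 31.2 kb inside the gene; groups run from aged (left of the dotted line) to young hosts, with OTC in grey, Zfp219 in red and Dusp5 in blue. At the Tgfb1 peak the red points lie below the grey points of the same state and age throughout.

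Tgfbr1, the type I receptor, had a single strong peak, over its first start site (chr4:47351546-47353811, mean 739). In OTC cells it held 564 to 736 in the 6 aged Tprog, Ttran and Tterm libraries and 629 to 974 in the 8 young ones, so the ranges overlap. It was lower in aged hosts, with a log2 difference of -0.29 ± 0.06 SE (limma adjusted p = 6.49e-05). With the Zfp219 guide it was higher in aged hosts (0.21 ± 0.06 SE, limma adjusted p = 0.00183) and -0.09 ± 0.06 SE in young hosts (limma adjusted p = 0.383); the difference between the ages was itself called (0.29 ± 0.09 SE, limma adjusted p = 0.0176). The other peak, 22.7 kb past the gene, was weak (mean 52.1) and was called in none of the 44 comparisons.

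Tgfbr2, the ligand-binding type II receptor, held more than any other of the 9 genes of the calls between Tprog and Tterm. In aged OTC cells 10 of its 21 peaks were called (5 higher in Tprog, 5 lower), and in young OTC cells 12 (8 higher, 4 lower), beside 20.1% and 26.5% of all peaks. The directions split by position. Of the 10 peaks inside the gene body away from the start site, 4 were higher in Tprog and 0 lower in aged hosts, and 7 and 0 in young hosts (median log2 difference 0.58 and 0.83), beside 8.88% of all peaks higher and 11.2% lower in aged hosts and 13.9% and 12.6% in young hosts. Of the 10 upstream peaks, 1 was higher and 5 lower in aged hosts, and 1 and 3 in young hosts (median -0.48 and -0.11). Over all 53868 peaks the medians were 0.01 in both.

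The peak with the largest F at Tgfbr2 lay deep in the body (chr9:116090788-116091931, 84.0 kb from the start site). In aged OTC cells it held 417 and 436 in Tprog, 260.2 and 233 in Ttran and 236 and 166 in Tterm, with 314 and 432 in Ttad. In young OTC cells it held 339 and 243 in Tprog, 165, 181 and 202 in Ttran and 93.5, 72.3 and 91.1 in Tterm. Tprog was above Tterm without overlap in both ages, and both aged Ttad libraries lay above both Tterm libraries and within or below the Tprog range. The log2 difference of Tprog from Tterm was 1.10 ± 0.20 SE in aged (limma adjusted p = 5.93e-06) and 1.74 ± 0.18 SE in young hosts (limma adjusted p = 1.24e-13). Ttad exceeded Tterm by 0.89 ± 0.20 SE (limma adjusted p = 0.00103), a call that was lost without Ttad replicate 2 or Tterm replicate 2 (adjusted p up to 0.122). The difference of Tprog from Tterm was called in all 6 combinations of age and guide (log2 difference 0.59 to 1.95). Of the 84 peaks, 3 were called higher in Tprog in all 6 combinations and 4 lower, beside 3.01% and 3.29% of all peaks.

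Further peaks of the body had the same order. At 60.8 kb (chr9:116113829-116115345) aged OTC cells held 397 and 342 in Tprog, 171 and 159 in Tterm and 320.3 and 333 in Ttad, and young OTC cells held 261 and 241 in Tprog and 111, 105 and 119 in Tterm. Tprog exceeded Tterm by 1.15 ± 0.20 SE (aged) and 1.17 ± 0.19 SE (young), and Ttad exceeded Tterm by 0.98 ± 0.20 SE (limma adjusted p = 4.51e-06, 2.86e-07 and 0.000457). The peak at 37.3 kb gave 0.80 ± 0.17 SE, 0.72 ± 0.15 SE and 0.68 ± 0.17 SE for the same 3 contrasts (limma adjusted p = 0.000103, 8.49e-05 and 0.00332). The peak at 52.2 kb gave 0.94 ± 0.28 SE in aged hosts, where the call was lost without Tprog replicate 2 or Tterm replicate 2 (adjusted p up to 0.462), and 1.23 ± 0.26 SE in young hosts (limma adjusted p = 0.00987 and 9.68e-05); Ttad against Tterm gave 0.87 ± 0.28 SE (limma adjusted p = 0.0411), which was lost under 4 alternatives (up to 0.103) and without Ttad replicate 1 or Tterm replicate 2.

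At several peaks upstream of the gene the order was the reverse. At -33.1 kb (chr9:116208295-116208681) aged OTC cells held 57.7 and 64.8 in Tprog, 158 and 183 in Ttran and 189.6 and 203 in Tterm, with 111 and 137 in Ttad. Young OTC cells held 33.0 and 66.7 in Tprog, 131, 145 and 125 in Ttran and 117, 77.8 and 90.0 in Tterm. Tprog lay below all other states in both ages, and Ttad lay between Tprog and the Tim-3-positive states. The log2 difference of Tprog from Tterm was -1.67 ± 0.28 SE in aged (limma adjusted p = 1.63e-06) and -0.98 ± 0.26 SE in young hosts (limma adjusted p = 0.00186); without young Tprog replicate 1 the latter was -0.48 and not called (limma adjusted p = 0.311). Ttad exceeded Tprog by 0.997 ± 0.28 SE (limma adjusted p = 0.0162), which was lost without either Tprog library or Ttad replicate 2.

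Nearer the start site, the peak at -9.74 kb (chr9:116184946-116185258) held 72.5 and 54.1 in aged Tprog, 169 and 171 in Tterm and 107 and 96.1 in Ttad, with 111 and 83.0 in young Tprog and 208, 205 and 191 in young Tterm. Tprog was lowest without overlap in both ages. The log2 difference of Tprog from Tterm was -1.43 ± 0.23 SE (aged) and -1.06 ± 0.21 SE (young; limma adjusted p = 8.08e-07 and 4.31e-05). The peak at -6.70 kb gave -0.97 ± 0.14 SE and -0.54 ± 0.13 SE (limma adjusted p = 7.69e-08 and 0.000867). For Ttad against Tterm the 2 peaks gave -0.74 ± 0.23 SE and -0.52 ± 0.14 SE (limma adjusted p = 0.0337 and 0.0119), and both calls were lost when libraries were left out: the first without any of the 4, and also under quantile normalization and with the compared groups alone (adjusted p up to 0.0591), the second without Ttad replicate 1 or either Tterm library. These 3 upstream peaks were lower in Tprog in all 6 combinations of age and guide.

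Not all upstream peaks were lower in Tprog. Those at -68.5 and -91.7 kb were higher in 5 of the 6 combinations, with 1 call each. Those at -14.2 and -37.1 kb were called in 0 and 1 of the 6, the latter lower. At -88.6 kb (chr9:116263526-116264494) Tprog was higher than Tterm in all 6 combinations (log2 difference 0.60 to 1.25), with 177 and 188 against 104 and 127 in aged and 235 and 228 against 119, 119 and 123 in young OTC cells. The start-site peak (chr9:116173931-116176172, mean 807, the strongest at the gene) differed little: 851 and 734 in aged Tprog against 861 and 785 in Tterm, a log2 difference of -0.06 ± 0.09 SE (limma adjusted p = 0.746), and -0.25 ± 0.09 SE in young hosts (limma adjusted p = 0.0228).

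**Figure D3:**
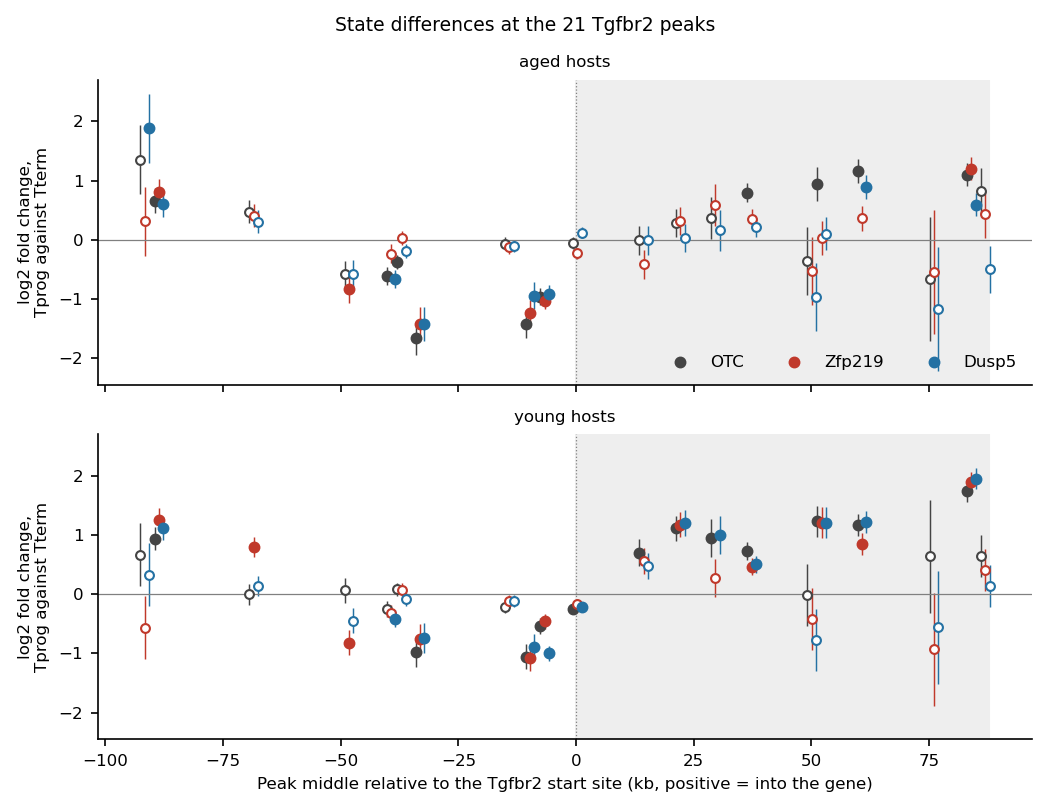
Log2 difference of Tprog from Tterm (± SE) at the 21 Tgfbr2 peaks against the distance of the peak's middle from the start site in kb, for OTC (grey), Zfp219 (red) and Dusp5 (blue), aged hosts above and young hosts below; filled points had a limma adjusted p under 0.05 and the shaded span is the gene body. Called points in the body away from the start site lie above 0, those from -6.70 to -48.2 kb lie below it, and the peak at -88.6 kb lies above it in all 6 settings.

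**Figure D4:**
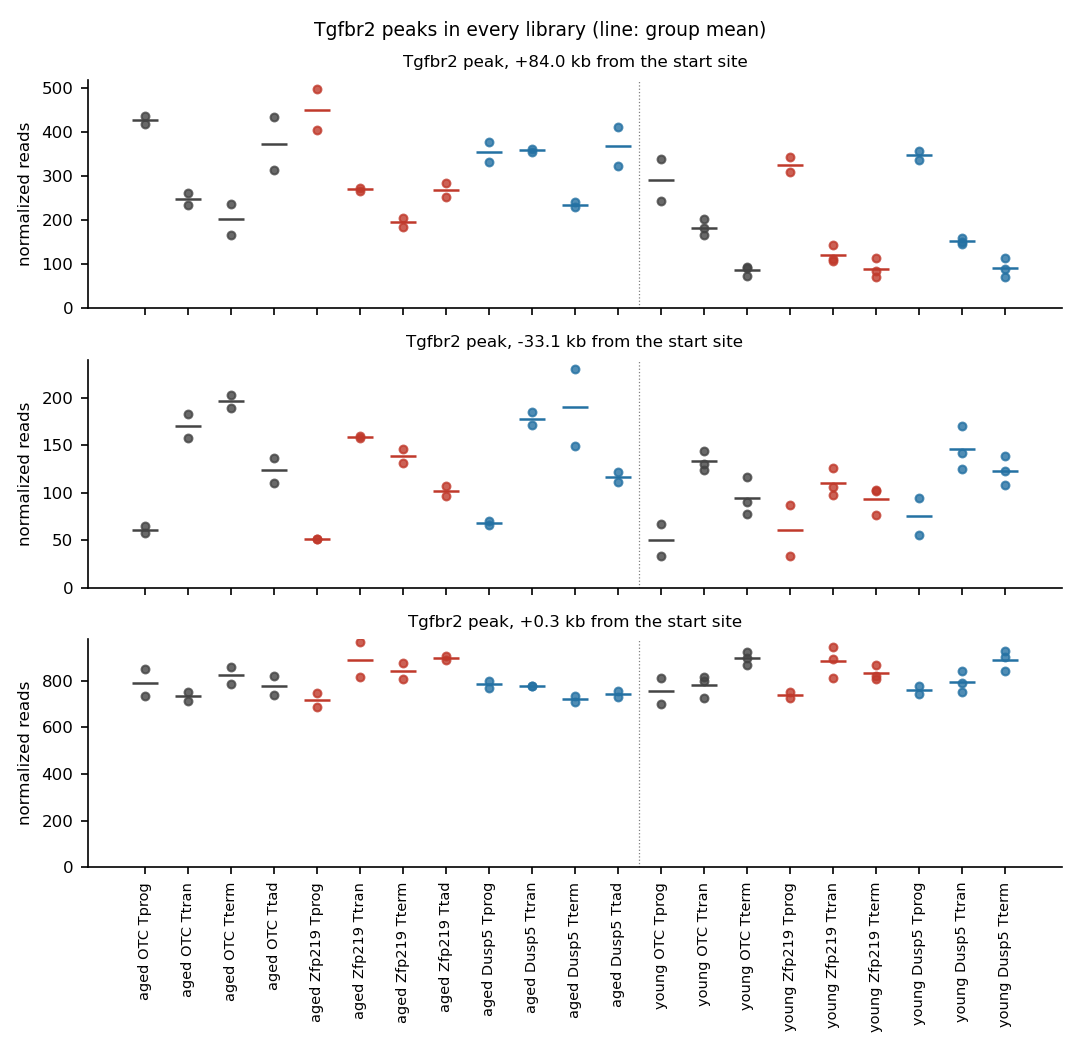
Normalized reads in every library (points) and the group mean (line) at the Tgfbr2 peaks 84.0 kb inside the gene, -33.1 kb upstream and over the start site; aged hosts are left of the dotted line, with OTC in grey, Zfp219 in red and Dusp5 in blue. Tprog is high in the top panel and low in the middle panel, and in the bottom panel the highest group mean is 1.25 times the lowest.

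Taking the mean log2 level of the 10 body peaks minus that of the 10 upstream peaks as 1 value per group, Tprog stood at -0.86 in aged and -0.79 in young OTC cells, Tterm at -1.63 and -1.81, and aged Ttad at -1.19. Among Zfp219 and Dusp5 cells the 4 Tprog groups ranged from -1.14 to -0.92 and the 4 Tterm groups from -1.99 to -1.09. In aged Dusp5 cells the states were close, with -0.95 in Tprog, -1.09 in Tterm and -1.08 in Ttad. Across the 21 groups the body mean and the upstream mean had a Pearson r of 0.26, a description over groups that share libraries, depth and table. In bulk samples a change in the share of cells with an open site and a change within each cell cannot be told apart. The stroma list (4 of 5 genes with peaks, none at Col1a2) also differed between these states. It summed to 3016 to 3119 in aged OTC Tprog and 4056 to 4143 in Tterm. In young hosts the sums were 3036 to 3171 and 3500 to 3624. Of this list's 17 peaks, 13 were at Pecam1, whose strongest had a mean of 1021, beside 287 for the strongest at Col1a1. The peaks of the B cell gene Pax5 summed to 513.7 to 523 in aged OTC Tprog and 285 to 337 in Tterm, and to 516 to 589 and 279.9 to 309 in young hosts. The peaks of Cd4 summed to 240.4 to 260.4 in aged Tprog and 412 to 499 in Tterm, and to 410.5 to 454 and 495 to 572 in young hosts. The NK cell list had 8 of its 9 peaks at Klrb1c. It summed to 2651 to 2744 in aged Tprog and 2211 to 2437 in Tterm. In young hosts the sums were 2700.1 to 2772 and 2247 to 2422. The CD8 T cell, melanoma and myeloid lists also parted without overlap between Tprog and Tterm in both ages. The first and second were higher in Tprog in both, and the myeloid list was lower in aged and higher in young Tprog. Their part in the state differences was not tested.

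Host age and the Zfp219 guide went with differences at further Tgfbr2 peaks. At 22.2 kb (chr9:116152701-116153662) aged OTC cells held 268 and 233 in Tprog, 215 and 277 in Ttran and 185 and 230.0 in Tterm, with 288 and 307 in Ttad, whereas young OTC cells held 171 and 116 in Tprog, 95.4, 102 and 88.7 in Ttran and 71.4, 55.0 and 69.2 in Tterm. All aged OTC libraries exceeded all young ones, and the log2 difference was 1.275 ± 0.13 SE (limma adjusted p = 2.48e-14). Zfp219 cells of aged hosts held 105 to 182, below all 8 aged OTC libraries, a log2 difference of -0.90 ± 0.12 SE (limma adjusted p = 1.46e-09). In young hosts the Zfp219 difference was -0.20 ± 0.12 SE (limma adjusted p = 0.359), and the 2 ages differed by -0.60 ± 0.18 SE (limma adjusted p = 0.0229). Aged Zfp219 and aged-against-young values share the aged OTC libraries.

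The neighbouring peak at 14.4 kb (chr9:116160542-116161482) had the same shape: 171 to 295 in aged OTC, 87.3 to 147 in aged Zfp219 and 67.5 to 130.1 in young OTC libraries. The log2 difference was 1.06 ± 0.13 SE for age, -0.86 ± 0.12 SE for Zfp219 in aged hosts and -0.57 ± 0.12 SE for Dusp5 in aged hosts (limma adjusted p = 2e-10, 2.26e-08 and 0.000454). In young hosts Dusp5 cells were higher (0.44 ± 0.13 SE, limma adjusted p = 0.0288, lost under quantile normalization and without any 1 of 9 libraries), and both guides' differences between the ages were called (limma adjusted p = 0.000351 for Zfp219 and 8.76e-05 for Dusp5). At -68.5 kb the age difference was 0.83 ± 0.10 SE and the aged Zfp219 difference -0.51 ± 0.10 SE (limma adjusted p = 1.85e-10 and 1.56e-05). In all, 12 of the 21 Tgfbr2 peaks were called between aged and young OTC cells, 11 of them higher in aged hosts, beside 36.5% of all peaks called and 17.3% higher.

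Among the receptor-regulated SMADs, Smad2 had 1 strong peak (mean 1051), and its other peaks had means of 8.83 to 107 normalized reads. Its strongest peak, over the lower-coordinate end of the gene body (chr18:76240836-76242458), held 993 to 1339.8 in aged and 917 to 1155 in young OTC libraries. It was lower with Zfp219 in young hosts (-0.20 ± 0.05 SE, limma adjusted p = 0.00406) and with Dusp5 in aged hosts (-0.16 ± 0.05 SE, limma adjusted p = 0.0222). By limma 0 of the 8 Smad2 peaks were called between Tprog and Tterm in OTC cells of aged or young hosts. Of all peaks 20.1% and 26.5% were called. At an unadjusted p under 0.05 there were 2 in aged and 0 in young hosts, and edgeR called 0 in both. The median log2 difference of the 8 peaks was 0.54 in aged and 0.37 in young hosts. A peak 66.8 kb outside the gene body (chr18:76378527-76379374) was higher with Dusp5 in aged hosts (0.40 ± 0.13 SE, limma adjusted p = 0.0322), a call lost without any 1 of 8 libraries and with the compared groups alone (adjusted p = 0.0542).

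Smad3 held peaks that went opposite ways. At 54.3 kb inside the gene (chr9:63703332-63704075), aged OTC cells had 308 and 319 in Tprog, 668 and 485 in Ttran and 626 and 594 in Tterm, with 468 and 449.7 in Ttad, and young OTC cells 469 and 469 in Tprog, 770.0, 776 and 658 in Ttran and 609, 645 and 628 in Tterm. Tprog was lowest without overlap in both ages and aged Ttad lay between Tprog and Tterm. The log2 difference of Tprog from Tterm was -0.96 ± 0.12 SE in aged and -0.42 ± 0.11 SE in young hosts (limma adjusted p = 9.07e-10 and 0.00255). Ttad differed from Tprog by 0.55 ± 0.12 SE (limma adjusted p = 0.00164) and from Tterm by -0.41 ± 0.12 SE (limma adjusted p = 0.0236), the last lost without any 1 of its 4 libraries.

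At 19.7 kb (chr9:63737429-63739178) the order was turned: 1413 and 1328 in aged OTC Tprog, 1268 and 1245 in Ttran and 771 and 925 in Tterm, with 1335 and 1090.3 in Ttad, with 1368 and 1214 in young Tprog and 1003, 976 and 1055 in young Tterm. Tprog exceeded Tterm without overlap in both ages, while aged Ttad overlapped Tprog. The log2 difference was 0.70 ± 0.09 SE in aged and 0.35 ± 0.09 SE in young hosts (limma adjusted p = 5.31e-09 and 0.000939). Both of these Smad3 peaks were called in the same direction in all 6 combinations of age and guide. The strongest Smad3 peak, at 36.7 kb, was -0.02 ± 0.08 SE between aged Tprog and Tterm (limma adjusted p = 0.884) and -0.27 ± 0.04 SE with Zfp219 in young hosts (limma adjusted p = 2.42e-07).

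With the Zfp219 guide 4 of the 21 Smad3 peaks were lower and 3 higher in aged hosts (13.7% and 12.1% of all peaks), and 6 were lower and 0 higher in young hosts (5.15% and 1.92%). At 31.2 kb (chr9:63726430-63727152) aged OTC cells held 276 and 302 in Tprog, 338 and 312 in Ttran and 295 and 309 in Tterm, with 355 and 320.3 in Ttad. Aged Zfp219 cells held 183 and 179 in Tprog, 159 and 173 in Ttran and 242 and 249.97 in Tterm, with 244 and 273 in Ttad, below OTC without overlap in each. The gap was widest in Ttran (-0.97 ± 0.16 SE, limma adjusted p = 1.8e-06) and was -0.29 ± 0.16 SE in Tterm (limma adjusted p = 0.366). Averaged over states it was -0.58 ± 0.08 SE in aged hosts, -0.41 ± 0.08 SE in young hosts and -0.29 ± 0.08 SE for Dusp5 in aged hosts (limma adjusted p = 3.68e-09, 0.000141 and 0.00678). Upstream of Smad3, weak peaks at -19.0 and -27.7 kb (means 41.7 and 47.7) were higher with Zfp219 in aged hosts by 0.96 ± 0.25 SE and 0.89 ± 0.20 SE (limma adjusted p = 0.00216 and 0.000378). The same 2 peaks were lower in aged than in young OTC cells (-0.81 and -0.76). Leaving out 1 library ended those age calls: 3 libraries did so for the first and aged Tterm replicate 1 for the second. The aged Zfp219 and the age differences share aged OTC libraries.

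At Smad4, the shared partner of SMAD2 and SMAD3, the strongest peak lay over the higher-coordinate end of the gene body (chr18:73703017-73704449). It held 436 to 544 in aged OTC libraries and 449 and 371 in Tprog, 382, 372 and 379 in Ttran and 522, 489.9 and 552 in Tterm of young OTC cells. In young hosts Tterm was the highest state: Tprog was -0.35 ± 0.11 SE and Ttran -0.46 ± 0.10 SE relative to it (limma adjusted p = 0.0147 and 0.000938), while the aged Tprog difference was -0.10 ± 0.13 SE (limma adjusted p = 0.64). A broad region of 4089 bases in the Smad4 body (chr18:73689657-73693746) carried few reads for its width (20.1 per kb, above only 2.40% of all peaks). There aged OTC libraries held 75.1 to 156 and young ones 3.17 to 56.5 in Tprog, Ttran and Tterm, without overlap. The age difference was 1.97 ± 0.23 SE (limma adjusted p = 7.98e-12) and lay between 1.63 and 2.18 with each library left out in turn. In young hosts the region was higher with Zfp219 (1.06 ± 0.21 SE) and with Dusp5 (1.26 ± 0.21 SE; limma adjusted p = 0.000302 and 3.05e-05), groups that share those OTC libraries.

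Smad7, the inhibitory SMAD that the pathway itself induces, had its strongest peak over the lower-coordinate end of its body (chr18:75366530-75368178). In young OTC cells it held 643 and 605 in Tprog, 596, 624 and 610.2 in Ttran and 819.7, 775 and 863 in Tterm. Tterm was highest without overlap, and Tprog was -0.39 ± 0.10 SE relative to it (limma adjusted p = 0.00138). In aged OTC cells the values were 671 and 730.2 in Tprog and 795 and 673 in Tterm and overlapped (-0.06 ± 0.11 SE, limma adjusted p = 0.756); the difference between the ages was 0.33 ± 0.15 SE (limma adjusted p = 0.287). A second body peak (chr18:75390830-75392934) was higher in aged than young OTC cells (0.34 ± 0.07 SE) and lower with Zfp219 (-0.32 ± 0.06 SE) and Dusp5 (-0.22 ± 0.06 SE) in aged hosts (limma adjusted p = 2.72e-05, 3.42e-05 and 0.0119). A weak peak 14.3 kb outside the gene (chr18:75410192-75410644, mean 26.6) was higher in young OTC Tprog than Tterm (1.59 ± 0.48 SE, limma adjusted p = 0.00814), a call lost without young Tprog replicate 1.

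Ski and Skil encode related repressors that bind SMAD complexes. The strongest Ski peak, 21.3 kb inside the gene (chr4:155200503-155201892), held 1282 and 1229.7 in aged OTC Tprog, 1891 and 1741 in Ttran and 1613 and 1671 in Tterm, with 1464 and 1510.4 in Ttad. In young OTC cells it held 1539.5 and 1521 in Tprog, 1931, 1788 and 1654 in Ttran and 1415, 1400.4 and 1433 in Tterm. Ttran was highest in both ages, but Tprog was the lowest state in aged hosts and lay above Tterm in young hosts. The log2 difference of Tprog from Tterm was -0.39 ± 0.07 SE in aged (limma adjusted p = 2.45e-05) and 0.11 ± 0.07 SE in young hosts (limma adjusted p = 0.23). This was the 1 peak of 84 for which that difference itself differed between the ages (-0.50 ± 0.10 SE, limma adjusted p = 0.000785; 2.32% of all peaks). With Zfp219 the log2 difference in young hosts was -0.26 ± 0.04 SE (limma adjusted p = 3.33e-07).

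A weaker Ski peak at 14.4 kb (chr4:155207471-155208786) was higher in Tprog: 237 and 245 against 112 and 161 in aged and 337 and 329 against 166, 179 and 145 in young OTC cells, without overlap. The log2 differences were 0.83 ± 0.20 SE and 1.03 ± 0.19 SE (limma adjusted p = 0.00114 and 6.19e-06). Of the weak Ski peaks, chr4:155168679-155169461 (mean 58.0) was lower in aged than young OTC cells (-0.71 ± 0.21 SE, limma adjusted p = 0.00388). It was higher with Zfp219 in aged hosts (0.58, limma adjusted p = 0.015), a call lost without either of 2 libraries. Both differences use the aged OTC libraries. The Ski peak chr4:155221726-155222168 (mean 94.6) was lower in young OTC Tprog than Tterm (-0.80, limma adjusted p = 0.0143). That call was lost without any 1 of 3 libraries.

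Skil had the strongest peak of all 84, over the lower-coordinate end of its body (chr3:31093420-31095974, mean 2137). In aged OTC cells it held 2593 and 2420.3 in Tprog, 2419 and 2441 in Ttran and 2599.6 and 2575 in Tterm. In young OTC cells it held 1856 and 1887 in Tprog, 1919, 1884 and 2003 in Ttran and 2078, 1925 and 2030.4 in Tterm. Every aged OTC library exceeded every young one, by 0.37 ± 0.03 SE on the log2 scale (limma adjusted p = 8.97e-16). Zfp219 cells differed from OTC by -0.14 ± 0.03 SE in aged and -0.14 ± 0.03 SE in young hosts (limma adjusted p = 0.000365 and 0.00294). A weak peak 10.7 kb outside the gene (mean 17.5) was also higher in aged hosts (1.60 ± 0.38 SE, limma adjusted p = 0.000447).

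Counted over the 9 genes, 33 of 84 peaks differed between aged and young OTC cells averaged over Tprog, Ttran and Tterm (22 higher in aged, 11 lower), beside 36.5% of all peaks (17.3% higher, 19.1% lower). The higher calls were 11 at Tgfbr2, 3 at Smad3, 2 each at Tgfb1, Smad7 and Skil, and 1 each at Smad2 and Smad4. The column headers restart their library numbers in each host age, and aged libraries held at most 16159054 reads in peaks while young ones reached 29942755, so host age and such differences between the 2 sets of libraries cannot be told apart. The myeloid list (3 of 5 genes with peaks, none at Lyz2 or Csf1r) summed to 1539 to 1557 in aged and 2203 to 2221 in young OTC Tprog, and the Cd4 peaks to 240.4 to 260.4 and 410.5 to 454. The melanoma list summed to 1344 to 1382 and 1568 to 1633 in the same groups, and the CD8 T cell list to 9259 to 9612 and 10773 to 10792. The stroma and NK cell lists and Pax5 overlapped between these Tprog groups. In OTC Tterm the stroma list parted by age, with 4056 to 4143 in aged and 3500 to 3624 in young hosts. There the CD8 T cell, myeloid and melanoma lists were lower in aged hosts without overlap. The Cd4 peaks, the NK cell list and Pax5 overlapped between the ages in Tterm. The part of these lists in the age difference was not tested.

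With the Zfp219 guide 19 of 84 peaks differed in aged hosts (6 higher, 13 lower), beside 25.8% of all peaks (12.1% higher, 13.7% lower). In young hosts it was 16 (1 higher, 15 lower), beside 7.07% (1.92% higher, 5.15% lower). The 15 lower peaks in young hosts were 6 of Smad3, 3 of Ski, 2 of Tgfb1 and 1 each of Tgfbr2, Smad2, Smad7 and Skil. By state in young hosts, 5 peaks were called in Tprog (0.997% of all), 16 in Ttran (5.88%) and 2 in Tterm (0.275%). In aged hosts the counts were 13 for Ttran (14.2%), 6 for Ttad (8.23%), 5 for Tprog (2.56%) and 2 for Tterm (3.57%). Read depth differed by guide within states. In young Ttran the Zfp219 libraries held 6589023, 7606132 and 7952298 reads in peaks, and OTC 29942755, 17002746 and 12629361. Zfp219 libraries were also shallower than OTC without overlap in young Tprog. They were deeper without overlap in aged Ttran, Ttad and Tterm. The ranges overlapped in young Tterm and aged Tprog. The part of depth in these counts was not tested. The median log2 difference of the 84 peaks was -0.08 in aged and -0.11 in young hosts, with medians of 0.01 and -0.00049 over all peaks. The Zfp219 difference was itself different between the ages at 10 of 84 peaks (6 more positive in aged hosts, 4 more negative), beside 9.11% of all peaks (4.09% and 5.01%).

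The Dusp5 guide, compared with the same OTC libraries, gave 13 of 84 peaks in aged hosts (2 higher, 11 lower), beside 12.2% of all peaks (4.35% higher, 7.87% lower). In young hosts it gave 6 (4 higher, 2 lower), beside 3.82% (1.8% higher, 2.02% lower). The Dusp5 difference itself differed between the ages at 4 of 84 peaks (4.0% of all). Under quantile normalization 4 of 84 were called for Dusp5 in aged hosts, beside 4807 of all 53868 peaks, where the main fit called 6585. Zfp219 against Dusp5 directly gave 17 of 84 in aged hosts (22.3% of all) and 9 in young hosts (8.16% of all, 2.76% higher and 5.4% lower), each of the 9 lower with Zfp219.

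The other called peaks with the largest differences were weak or unstable. With Zfp219 in young hosts the Tgfbr2 peak at -91.7 kb (mean 29.2) was -1.36 ± 0.30 SE (limma adjusted p = 0.000848). With Dusp5 in aged hosts the Smad3 peak at -86.2 kb was 0.59 ± 0.19 SE and the Smad7 peak chr18:75372619-75373059 -0.41 ± 0.14 SE (limma adjusted p = 0.0298 and 0.0414), calls lost without any 1 of 7 and of 13 libraries; the first was also lost under quantile normalization and with the compared groups alone (adjusted p up to 0.0669). With Dusp5 in young hosts the Tgfbr2 peak at -68.5 kb was 0.34 ± 0.10 SE and the Smad3 peak at 17.4 kb -0.27 ± 0.08 SE (limma adjusted p = 0.0305 and 0.0309), lost without any 1 of 7 and of 8 libraries.

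**Figure D5:**
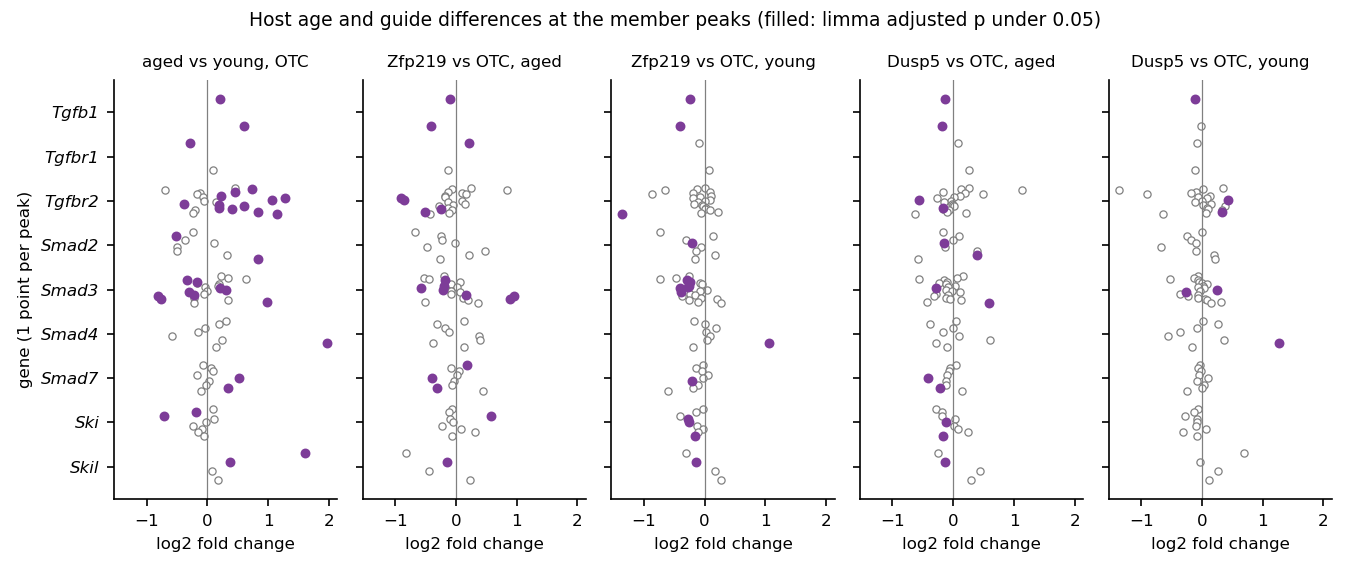
Log2 difference at each of the 84 peaks (1 point per peak, by gene) for aged against young OTC cells and for the Zfp219 and Dusp5 guides against OTC in each host age; purple points had a limma adjusted p under 0.05. Purple points lie mostly right of 0 at Tgfbr2 in the age panel (11 of 12) and left of 0 in the panel of Zfp219 in young hosts (15 of 16).

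Ttran and Ttad complete the states. In aged OTC cells Ttran differed from Tprog at 19 of 84 peaks (15 higher, 4 lower), beside 17% of all peaks (9.99% higher, 6.98% lower), and from Tterm at 2 (3.22% of all). In young OTC cells it differed from Tprog at 20 (14 higher, 6 lower), beside 16.9% (9.07% higher, 7.82% lower), and from Tterm at 9 (8.38%). Aged OTC Ttad differed from Tterm at 9 (6 higher, 3 lower), beside 7.28% of all peaks (3.02% higher, 4.26% lower). It differed from Tprog at 8 (7 higher, 1 lower), beside 6.55% (3.82% higher, 2.73% lower), and from Ttran at 6 (1 higher, 5 lower), beside 7.74% (3.02% higher, 4.72% lower). The largest calls against Tprog were the Tgfbr2 peak at -33.1 kb, the Smad3 peak at 54.3 kb, the Tgfbr2 peak at -39.3 kb (0.46 ± 0.15 SE, limma adjusted p = 0.0477) and the weak Ski peak chr4:155168679-155169461 (-1.15 ± 0.38 SE, limma adjusted p = 0.0481), the last 2 lost under 6 alternatives each. Of the 9 Ttad calls against Tterm, 4 were Tgfbr2 body peaks, all higher, and 2 were Tgfbr2 upstream peaks, both lower. Without single libraries the Ttad counts fell to between 4 and 6 against Tterm and 2 and 3 against Tprog.

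Peaks of other pathway genes came from a list of 52, of which 49 had 213 peaks. Between aged OTC Tprog and Tterm 29 were higher and 19 lower (22.5% called), and between young ones 41 and 23 (30.0%), beside the 20.1% and 26.5% of all peaks. Of 10 other receptor and co-receptor genes (30 peaks, 9 genes with a peak), 4 peaks were higher and 0 lower in aged Tprog and 9 and 1 in young Tprog; Tgfbr3, the co-receptor betaglycan, gave 3 and 5 of these. Ligand and activation genes (15 genes, 54 peaks) gave 1 higher and 12 lower in aged Tprog and 3 and 8 in young Tprog, with 6 and 5 of the lower ones at Itgav, an integrin chain that takes part in releasing TGF-beta. The 7 genes known to be induced by TGF-beta (45 peaks at 6 of them) gave 16 higher and 6 lower in aged Tprog (48.9% called) and 15 and 6 in young Tprog (46.7%), with a median log2 difference of 0.17 and 0.24. Ldlrad4, an inhibitor of SMAD phosphorylation, held 9 of the higher peaks in each age, and the lower ones were mainly at the cell cycle inhibitor gene Cdkn2b (5 in each age), with 1 in each age at Itgae, which encodes the CD103 integrin chain. Regulators of the pathway (19 genes, 101 peaks) gave 19 higher and 0 lower in aged Tprog and 25 and 8 in young Tprog. Of these genes 3 (Ldlrad4, Pmepa1 and Tgif1) are also in the induced list. The 9 higher Ldlrad4 peaks of each age are therefore counted in both lists. Over all peaks 8.88% were higher and 11.2% lower in aged Tprog, and 13.9% and 12.6% in young Tprog. With Zfp219, 28 of the 213 peaks were higher and 34 lower in aged hosts (29.1% called) and 4 and 11 in young hosts (7.04% called), beside 25.8% and 7.07% of all peaks.

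The genes whose mean accessibility over their peaks followed each member most closely across the 21 groups were Cd82 (Pearson r = 0.96) and B4galt5 (0.93) for Tgfb1, Marcks (0.78) and Trappc12 (0.71) for Tgfbr1, and Nfkb1 (0.94) and Pdhx (0.93) for Tgfbr2. They were Iglon5 (0.79) and Wdr1 (0.76) for Smad2, Gm38664 (0.81) and Ptp4a2 (0.79) for Smad3, and Chst14 (0.83) and Foxk1 (0.77) for Smad4. They were Cass4 (0.79) and Gm46294 (0.78) for Smad7, Rbm38 (0.78) and Ksr1 (0.76) for Ski, and Tcf4 (0.92) and Micu3 (0.92) for Skil. In these log2 means a weak peak counts as much as a strong one. The Tgfbr1 mean was highest in aged Dusp5 Tprog and lowest in aged OTC Ttran, as was its weak peak (mean 52.1). About 6389 genes with at least 3 peaks were compared for each, over groups that share libraries and depth, and the r is a description.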

How the data were processed

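The members, gene lists and comparisons were chosen with earlier results of these data known. ATAC-seq reads open chromatin through transposase insertions; each of the 48 libraries came from 5000 to 50000 sorted cells, per the labels' protocols. The authors deposited 1 table of normalized signal for 53868 peaks; its scaling step is not given in the sources used here. The submitters' processing notes name the mm10 build (GRCm38), Bowtie2 2.2.9, Picard 2.8.0, SAMtools 1.3.1, MACS2 2.1.1 and DESeq2 1.28.1, with no role or order. Values were whole multiples of the value of 1 read: 100% came out whole within 0.01 reads, and the scaling matched median-of-ratios factors. Whether cut positions were shifted for the transposase and duplicates removed is not given there.

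Genes and start sites are RefSeq GRCm38.p6. Log2(value + 1) was fitted over all 48 libraries with limma 3.58.1 (R 4.3.3; group means, trended empirical Bayes), and p-values were adjusted over all peaks by Benjamini-Hochberg; fold changes are on that scale and understate change at weak peaks. Groups came from sample titles. edgeR 4.0.16 quasi-likelihood on the recovered reads was an alternative; it called 11511 peaks for aged OTC Tprog against Tterm, where limma called 10806. The code was tested on simulated data. Described peaks were, for each gene, the strongest and the one with the largest F, and in each main comparison up to 3 called peaks in each direction by size; other peaks named (such as those at Tgfbr2 upstream and in its body) were chosen after their values were seen. Promoter sequences were searched on both strands.

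Replicates are pools of mice, but which mice entered which pool is not given in the sources used here, so p-values measure the spread between these pools. Whether replicate numbers pair the libraries is not given either. Deviations of same-numbered libraries had r between -0.018 and 0.017, so no shared deviation by number was seen. These r values cannot show whether such libraries came from the same mice. Replicates had r between 0.932 and 0.978 within groups. Alternatives were a pseudocount of 8, the weakest 25% of peaks left out, quantile normalization, edgeR with TMM or median-of-ratios factors, the compared groups alone, replicate blocks and each library left out in turn. Some genes of the lists are not reported here.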

Additional observations from a re-analysis of the deposited data

Results flagged for a closer look

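The difference between Tprog and Tterm in OTC cells was itself different between aged and young hosts at 1 of the 84 peaks: the Ski peak chr4:155200503-155201892, with a log2 difference of -0.50 (limma interaction, adjusted p = 0.000785).

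The Zfp219 difference from OTC, averaged over Tprog, Ttran and Tterm, was not the same in both host ages at 10 of the 84 peaks (limma interaction). At Smad3 it was more positive in aged hosts at 4 peaks, by 0.33 (51.4 kb), 0.25 (36.7 kb), 0.35 (-0.556 kb, over the start site) and 1.37 (-19.0 kb), the last lost without any 1 of 3 libraries. It was also more positive at the Tgfbr1 start-site peak (0.29) and at the Smad7 peak chr18:75410192-75410644 (1.19, limma adjusted p = 0.0481), a call lost without any 1 of 20 libraries, under both replicate blocks and with the compared groups alone (adjusted p up to 0.0577). It was more negative at Tgfbr2 peaks at 22.2, 14.4 and -68.5 kb (-0.60, -0.93 and -0.66) and at the broad Smad4 region (-1.48).

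For Dusp5 the same test called 4 peaks. The difference was more negative in aged hosts at Smad3 25.2 kb (-0.41), the Smad4 region (-1.55) and Tgfbr2 14.4 kb (-1.05), and more positive at Tgfbr2 50.1 kb (1.69), a peak with a mean of 25.5 normalized reads.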

How the results depend on the processing

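Of the 10 main counts, 8 stayed within 1.5 times their value under the other pseudocount, the filter on weak peaks, quantile normalization, both edgeR fits, the compared groups alone and both replicate blocks. The called peaks with the largest difference in each main comparison were refitted, and none changed sign; other described peaks were not followed one by one. For Ttad against Tprog the count of 8 became 4 under quantile normalization and 5 with edgeR and TMM factors. It was also 5 with edgeR and median-of-ratios factors and 5 with the compared groups alone. Over all peaks the count of 3531 became 2810, 3108, 3177 and 2607 in the same order. For Dusp5 in aged hosts the count of 13 became 4 under quantile normalization, while that of all peaks went from 6585 to 4807. Leaving out each library in turn gave 15 to 15 for aged Tprog against Tterm, 4 to 6 for Ttad against Tterm, 2 to 3 for Ttad against Tprog, and 13 to 22 for young Tprog against Tterm (13 without young Tprog replicate 1). It gave 29 to 36 for age, 15 to 22 and 14 to 20 for Zfp219 in aged and young hosts, 7 to 13 for Dusp5 in aged hosts (7 without aged Dusp5 Tprog replicate 1), 2 to 6 for Dusp5 in young hosts (2 without young OTC Tterm replicate 2 or Ttran replicate 3; 3 without young Dusp5 Tprog replicate 1 or 2, Dusp5 Tterm replicate 1, OTC Tprog replicate 1 or OTC Ttran replicate 2) and 7 to 12 for the Zfp219 difference between ages. With 1 library left in a group, its spread was taken from the other groups, and the cause of lost calls was not tested. The replicate block within host age gave 17, 9, 6, 23, 32, 19, 16, 13, 6 and 10 calls in the order of the main comparisons, and within age and guide 17, 9, 7, 19, 31, 19, 16, 13, 5 and 9; no label ties a number to shared animals. Over those refits, 949 kept the call and 145 lost it in the same direction.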
